A study of Homo sapiens with 47 samples.

Results

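The 4 HOX gene clusters were followed across the chromatin profiles of 2 human melanoma cell lines, 451Lu and WM983B. The clusters were taken as 4 windows of the genome build hg19: HOXA at 7:27.12-27.26 Mb, HOXB at 17:46.60-46.82 Mb, HOXC at 12:54.32-54.46 Mb and HOXD at 2:176.93-177.07 Mb. Every listed ATAC-seq peak, H3K27ac peak or H3K9me3 island that overlapped a window was a member, which gave 1466 of 2303965 entries over 32 libraries. HOXA held 337 of them, HOXB 494, HOXC 322 and HOXD 313. By assay they were 1195 peaks in 20 ATAC-seq libraries, 198 peaks in 4 H3K27ac libraries and 73 islands in 8 H3K9me3 libraries. The windows were chosen by position and not by any measured value.

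HOX genes encode homeodomain transcription factors that give cells their position along the body axis, and their order on the chromosome follows the order in which they act along that axis. In differentiated cells part of a cluster is usually kept active and part silent, and cells of the skin and of the neural crest, from which melanocytes arise, carry a HOX pattern that records their place in the body. ATAC-seq finds open chromatin as DNA that a transposase can reach, H3K27ac marks active promoters and enhancers, and H3K9me3 marks heterochromatin. From low to high coordinate, HOXA runs from HOXA2 to HOXA13 and HOXB from HOXB1 to HOXB9, with HOXB13 standing apart beyond it, whereas HOXC and HOXD run from HOXC13 and HOXD13 down to the low-numbered genes. The 38 HOX genes of the windows (10 in HOXA, 10 in HOXB, 9 in HOXC and 9 in HOXD) were not tied to single peaks, because the gene tables at hand are of another build.

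RefSeq promoters of the build GRCh38.p14, each 300 bases around the gene start, were at hand for 20 of the 38 genes, 9 of HOXA, 8 of HOXD, 2 of HOXC and 1 of HOXB. Their median count of CG dinucleotides was 22.5 per 300 bases, against 14 over all 35116 promoters of the table, at a median GC content of 58% against 58.7%. The AP-1 motif TGANTCA, searched on both strands because the study over-expressed c-JUN and c-FOS, was in 0 of the 20 HOX promoters and in 7.71% of all promoters. The motif TGATTNAT, which HOX proteins bind together with PBX proteins, was in 2 of the 20 HOX promoters (10%) and in 2.82% of all promoters. These promoters are shown as the 2 that hold a match to the family's own motif, which lies in both on the opposite strand and is marked by capitals. They belong to HOXA2, an anterior gene that patterns the hindbrain and branchial arches (GRCh38.p14, 7:27102634-27102933, minus strand), and to HOXD11, a posterior gene of limb patterning (GRCh38.p14, 2:176107030-176107329, plus strand).
HOXA2: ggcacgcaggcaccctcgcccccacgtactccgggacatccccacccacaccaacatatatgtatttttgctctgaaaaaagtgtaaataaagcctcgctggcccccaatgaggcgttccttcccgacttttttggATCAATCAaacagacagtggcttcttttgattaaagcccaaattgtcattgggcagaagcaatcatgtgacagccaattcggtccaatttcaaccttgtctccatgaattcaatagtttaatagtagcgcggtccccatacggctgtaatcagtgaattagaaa
HOXD11: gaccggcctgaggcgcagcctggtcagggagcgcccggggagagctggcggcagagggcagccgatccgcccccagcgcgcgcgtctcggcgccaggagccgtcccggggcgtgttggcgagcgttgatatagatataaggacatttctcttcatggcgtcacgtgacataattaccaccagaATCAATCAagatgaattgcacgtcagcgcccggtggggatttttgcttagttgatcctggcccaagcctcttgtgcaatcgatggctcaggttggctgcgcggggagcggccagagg
A match describes the letters of these windows and was not set against the peaks. The shares among the 20 HOX promoters were not tested against those of all promoters.

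The study derived lines resistant to vemurafenib, an inhibitor of the kinase BRAF, and made 451Lu cells with added genetic changes. The groups were parental and Vemurafenib-resistant 451Lu, parental and Vemurafenib-resistant WM983B, 451Lu with vector and 451Lu that over-express c-JUN and c-FOS, which together form the transcription factor AP-1 (AP1), 451Lu with NT control and 451Lu with an shRNA against p150 (shp150), and 451Lu with vector and NT control (vector_NT) and 451Lu with both changes (shp150_AP1). ATAC-seq had 2 libraries in each of the 10 groups, and H3K9me3 had 2 libraries each of parental, resistant, vector_NT and shp150_AP1 451Lu. By the labels, H3K27ac had 2 replicates each of parental and resistant cells of either line, but only 1 of each had a peak list. Those lists were replicate 1 in 451Lu and replicate 2 in WM983B, so line and replicate number cannot be told apart. Differences in H3K27ac therefore have no replicate check. The sources used here do not give whether a resistant line is a single clone, whether it was kept on the drug, or whether replicates came from separate cultures, and the spread between replicates may be technical. The lineage of the cells was not checked against marker genes, for the same want of a gene table of the build.

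Every listed peak has a score from the authors, used here only to rank peaks within 1 list, and the sequencing depth behind the peak lists is unknown. The ATAC-seq lists of parental, resistant, vector_NT and shp150_AP1 451Lu held 79670 to 94550 peaks, those of vector, AP1, NT and shp150 451Lu 42898 to 56824, and those of WM983B 129339 to 147988. The WM983B peaks were shorter, with a median of 170 to 190 bp against 364 to 479 bp in 451Lu, and the lowest listed score was 1.30 to 1.32 against 2.001 to 2.04. The WM983B libraries went partly against their labels: over the whole genome, the bases shared by 2 lists, as a fraction of the bases in either, were 0.578 for parental and resistant replicate 1 and 0.609 for parental and resistant replicate 2, but 0.510 between the parental replicates and 0.509 between the resistant ones. Within the HOX windows these fractions were 0.523, 0.558, 0.507 and 0.562. In parental and resistant 451Lu, replicates of a group shared 0.823 and 0.782 in the HOX windows. In such bulk samples, fewer cells with an open site and less opening per cell cannot be told apart.

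A core of HOX sites was open in every library of both lines. Merging the lists of all 20 ATAC-seq libraries gave 114 HOX regions, of which 23 (20.2%) were called, meaning that at least 1 bp of the region was listed, in all 20 libraries. Over the whole genome this held for 11.7% of regions. HOXB held 9 of the 23, HOXA 6, HOXD 5 and HOXC 3. They appear as unbroken columns in the map of listed ATAC-seq peaks.

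**Figure D1:**
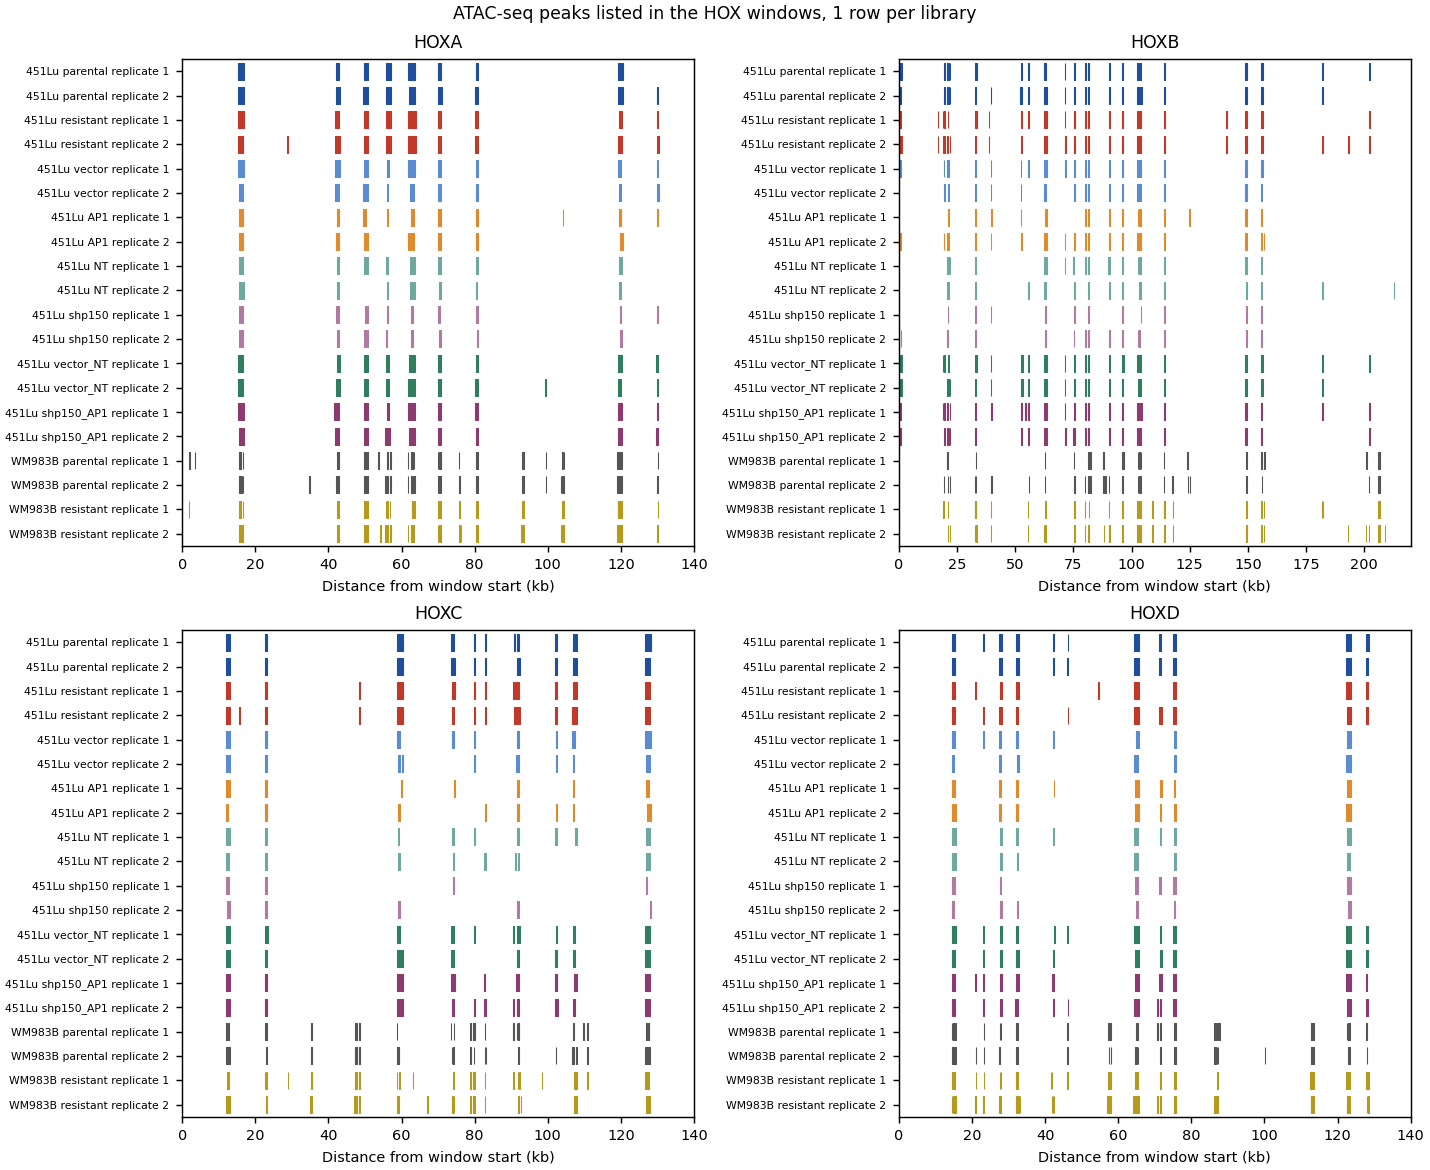
Position of every listed ATAC-seq peak in the 4 HOX windows, as distance from the window start in kb, with 1 row per library and colours by group. The columns that run through all rows are among the 23 regions called in all 20 libraries, and the ticks present only in the last 4 rows are WM983B sites.

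The strongest constant site of each cluster was taken as the one with the highest lowest score. In HOXB, 17:46662461-46663543 had scores of 50.7 and 55.5 in parental 451Lu, 47.0 and 56.8 in resistant 451Lu, 17.9 and 19.3 in parental WM983B, and 24.6 and 30.2 in resistant WM983B. In HOXA, 7:27189881-27190949 had 51.1 and 42.7 in parental 451Lu, 38.2 and 45.4 in resistant 451Lu, 17.5 and 18.4 in parental WM983B, and 13.8 and 24.4 in resistant WM983B. Parental and resistant scores overlapped at both sites within each line, except at the HOXB site in WM983B, where both resistant scores were the higher ones. In HOXC, 12:54342539-54343372 had 52.4 and 46.9 in parental 451Lu and 58.2 and 50.6 in resistant 451Lu, which overlapped. In HOXD, 2:177052250-177053755 had its lowest score at 10.4 and its highest at 37.7 over the 20 libraries. Scores of different libraries rest on different lists, so these values describe rank and not a change. The other constant sites named by the same rule were 7:27135174-27136898 in HOXA, 17:46755511-46756467 in HOXB, 12:54331994-54333173 in HOXC and 2:176944442-176945506 in HOXD.

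The 2 lines differed in which other HOX sites were open. Of the 114 regions, 56 were called in both lines. Another 46 (40.4%) were called in WM983B alone, against 37.6% of all regions, and 12 (10.5%) in 451Lu alone, against 15.1%. This split sets 4 WM983B libraries, which have the longer lists, against 16 of 451Lu. Among the parental and resistant libraries, 13 of 114 HOX regions were called in all 4 WM983B and no 451Lu library, against 6.3% of all regions, and 4 in all 4 451Lu and no WM983B library, against 2.34%. Another 35 of the 114 were called in all 8 libraries, against 22.7% of all regions. The sites open only in WM983B made up 11.4% of the regions in the HOX windows as a whole, 16.7% in HOXA, 15.4% in HOXD, 12.5% in HOXC and 5% in HOXB.

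The 4 sites of 451Lu were 3 in HOXB and 1 in HOXC. The first, 17:46600423-46601168, lies at the low-coordinate edge of the HOXB window, and it was the strongest, with scores of 37.7 and 32.5 in parental and 74.0 and 68.8 in resistant 451Lu. The others were 17:46671221-46671681, 17:46652196-46652817 and 12:54379822-54380302, with lowest scores of 18.2, 14.7 and 4.46.

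The WM983B sites lay in all 4 clusters. In HOXA they were 7:27212767-27213504, 7:27223839-27224239, 7:27224275-27224452 and 7:27195605-27195985, all in the higher-coordinate part of the window, the side of HOXA13, a gene of limb and urogenital patterning. In HOXB they were 17:46805936-46806249 and 17:46806336-46806752, near the high-coordinate end of the window, the side of HOXB13. In HOXC they were 12:54354996-54355594, 12:54367137-54367878 and 12:54398714-54398954. In HOXD they were 2:176987006-176987615, 2:176987658-176988096, 2:177016963-177017358 and 2:177042804-177043607. Of these 13 sites, 4 (30.8%) carried H3K27ac in both WM983B libraries, against 5.05% of all WM983B sites of the same kind. The 2 HOXB sites lie in the same H3K27ac region, 17:46805966-46806849, so they are not separate cases. Among all HOX regions open in both libraries, 30 of 70 in parental and 33 of 77 in resistant WM983B (42.9% in both) carried H3K27ac. Within HOX the share was thus not particular to the sites open only in WM983B. The score of the strongest, 7:27212767-27213504, was 9.22 and 11.03 in parental and 11.5 and 17.4 in resistant WM983B.

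The share of each window covered by listed ATAC-seq peaks was higher in 451Lu in 3 clusters. In HOXB it was 5.80% ± 0.199 (SD, n = 4) in 451Lu and 2.29% ± 0.547 (n = 4) in WM983B. In HOXC it was 6.45% ± 0.493 and 4.22% ± 0.472, and in HOXA 7.14% ± 0.193 and 5.67% ± 0.798. None of these 3 clusters had overlapping values between lines, and each gave an exact two-sided permutation p of 0.0286, the smallest that 4 against 4 can give, or 0.0381 after Benjamini-Hochberg adjustment over the 4 clusters. HOXD gave 5.47% ± 0.383 and 4.85% ± 0.891, with overlapping values and an adjusted exact permutation p of 0.229. Each side of the test was 1 cell line, with 2 parental and 2 resistant libraries. The n thus counts libraries, and these p-values do not measure the spread between lines. Leaving out any 1 of the 4 451Lu libraries raised the adjusted p to 0.0571 for HOXB and HOXC and 0.0762 for HOXA, with differences of 1.38 to 3.59 percentage points, and leaving out resistant WM983B replicate 2 gave HOXD an adjusted p of 0.0286 at a difference of 1.05.

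The whole lists moved the same way as the clusters. The 451Lu lists covered 47.5 Mb ± 2.10 (SD, n = 4) of the genome and the WM983B lists 31.97 Mb ± 3.12 (n = 4), with an exact permutation p of 0.0286, so the line and the way its peaks were listed cannot be told apart. Per 10000 bases covered by the whole list, HOXB kept its direction, with 2.69 in 451Lu and 1.57 in WM983B. HOXC gave 1.90 and 1.85, while HOXA turned to 2.11 and 2.47 and HOXD to 1.62 and 2.12. The adjusted exact permutation p-values on that scale were 0.0571 for HOXA and HOXB, 0.343 for HOXC and 0.0762 for HOXD.

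**Figure D2:**
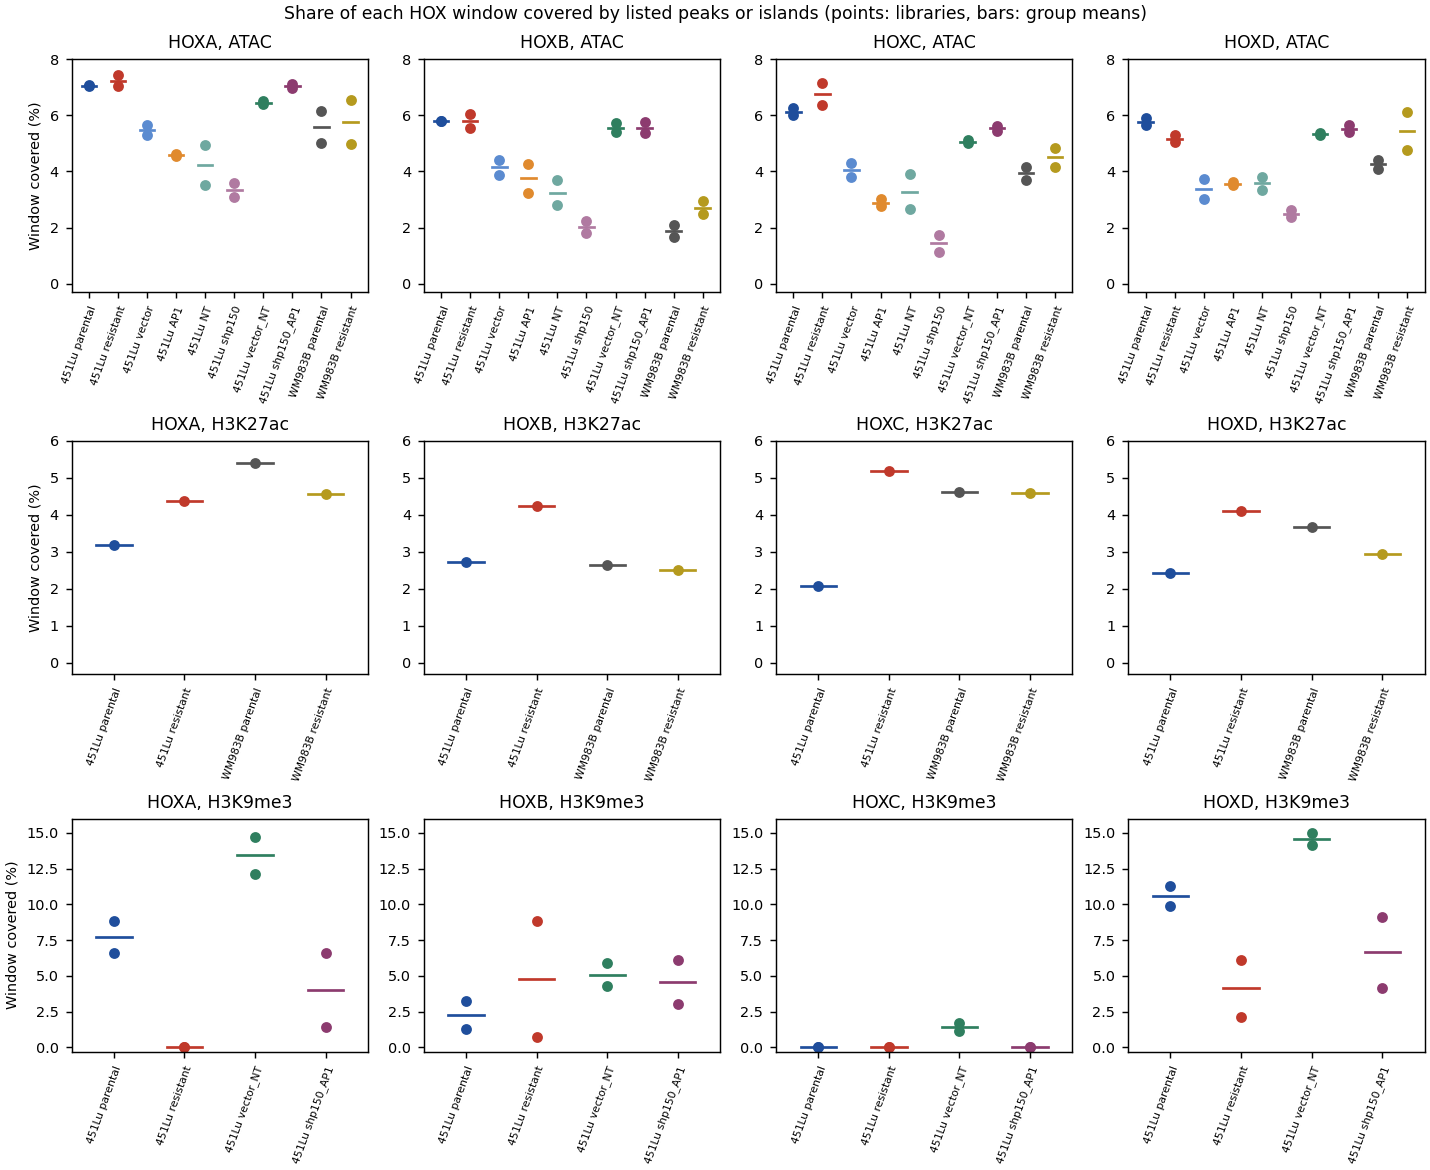
Percent of each HOX window covered by listed ATAC-seq peaks (top), H3K27ac peaks (middle) and H3K9me3 islands (bottom), by group; each point is a library and each bar the mean of its group. Among parental and resistant cells, HOXB coverage by ATAC-seq is lowest in WM983B, and both resistant 451Lu libraries lie at 0 for H3K9me3 in HOXA.

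Between parental and resistant 451Lu, few HOX sites differed in whether they were listed as open. Over the 4 parental and resistant libraries, 43 of 63 HOX regions (68.3%) were called in all, against 54.3% of all regions. A region counted as gained when called in both resistant and neither parental library, and as lost in the reverse case. HOX regions gained numbered 5 of 63 (7.94%), against 9.79% of all regions, and 1 of 63 (1.59%) was lost, against 3.96%. The regions called in all were wide, with a median of 853 bp, and those gained were narrow, with a median of 363 bp. No count of gained or lost regions carries a test, since 2 libraries against 2 cannot go below an exact two-sided p of 0.333. Leaving out a library makes the rule easier to meet, and gave 6 to 8 gained and 1 to 5 lost HOX regions. With lists of equal length 3 were gained (4.92%), all in HOXB, against 7.60% of all regions, and 2 were lost (3.28%), against 6.10%.

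The gains fell in HOXB (4 of 26 regions, 15.4%) and HOXC (1 of 13), and HOXA and HOXD had none. In HOXB, 17:46616606-46616912 had scores of 10.1 and 13.1 and 17:46638565-46638927 had 9.84 and 13.1 in the 2 resistant libraries. The fourth HOXB gain, 17:46740511-46740956, was weak, with 4.83 and 2.82. No other ATAC-seq library of the 20 listed a peak at these 3 sites. The remaining HOXB gain, 17:46618875-46619172, had 6.56 and 8.37, and was also listed in shp150_AP1 replicate 1, vector_NT replicate 1 and resistant WM983B replicate 1. The first 2 sites and the last named lie at the low-coordinate end of the window, the side of HOXB1. The lost site, 2:176972097-176972454 in HOXD, had scores of 4.55 and 6.97 in parental 451Lu and was listed in both shp150_AP1 and both vector_NT libraries as well. None of the 5 gained sites was listed in both shp150_AP1 libraries, against 26% of all gained regions, and 1 of the 5 was listed in all 4 WM983B libraries, against 34.7%.

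The HOXC gain was a weak call beside H3K27ac peaks that also differed between lists. With lists of equal length HOXC had 0 of 13 regions gained, and the lower of its scores is under the minimum of 5 tried as an alternative, so the call is lost under both. The site, 12:54368233-54368674, had ATAC-seq scores of 4.83 and 7.49 in resistant 451Lu, and no other 451Lu library listed it. All 4 WM983B libraries did, with 5.30 and 7.14 in parental and 8.93 and 8.38 in resistant cells. H3K27ac peaks at 12:54367685-54368252 and 12:54368348-54368944, with scores of 10.5 and 7.68, were listed in resistant but not in parental 451Lu, and a single wider peak was listed there in parental (12.8) and resistant (12.6) WM983B. H3K9me3 islands were listed near it in both vector_NT libraries of 451Lu, at 12:54368801-54370400 (ChIP over input fold 3.48) in replicate 1 and 12:54368201-54370600 (3.38) in replicate 2, and in none of the other 6 libraries. Only the island of replicate 2 overlaps the ATAC-seq site, since that of replicate 1 starts beyond it. Merged, they were the only H3K9me3 island of the HOXC window, and they rested on 110 ChIP and 25 input reads in replicate 1 and 108 ChIP and 38 input reads in replicate 2. Parental 451Lu listed none of the 3 features at this site.

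**Figure D3:**
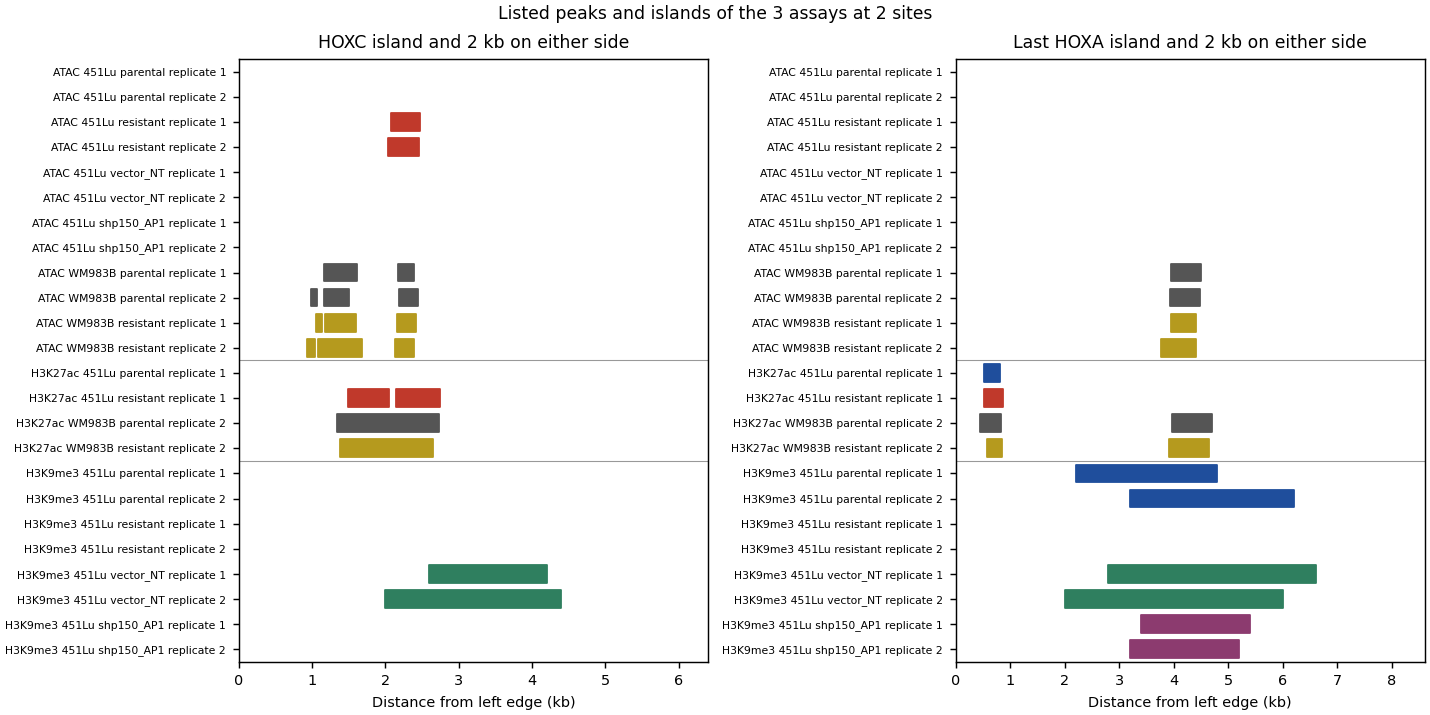
Listed ATAC-seq peaks, H3K27ac peaks and H3K9me3 islands at the single HOXC island (left) and at the HOXA island of highest coordinate (right), as distance in kb from a left edge 2 kb before the island, with 1 row per library. At the HOXC site the resistant 451Lu and WM983B rows hold peaks in ATAC-seq and H3K27ac and the parental 451Lu rows hold none. At the HOXA site the WM983B peaks at 7:27212767-27213504 (ATAC-seq) and 7:27212906-27213695 (H3K27ac) lie inside the island merged over parental, vector_NT and shp150_AP1 451Lu. The H3K27ac peak at 7:27209454-27209864, listed in all 4 H3K27ac libraries, lies outside it.

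In WM983B the labels parental and resistant separated few HOX sites. Of 144 HOX regions, 6 (4.17%) were gained, against 1.47% of all regions, 3 (2.08%) were lost, against 1.22%, and 58 (40.3%) were called in all 4 libraries, against 38%. The gains were 17:46708801-46709041, 17:46655429-46655636 and 17:46756874-46757073 in HOXB and 2:176971777-176971927, 2:177058435-177058531 and 2:177042552-177042764 in HOXD. The losses were 7:27219470-27219596 in HOXA and 17:46724033-46724194 and 17:46682229-46682496 in HOXB. The gained sites had a median width of 204 bp, against 406.5 bp for the HOX regions called in all 4 libraries, and lowest scores from 2.53 to 7.32. Replicates disagreed on 47 of 123 (38.2%) resistant and 43 of 110 (39.1%) parental HOX regions, against 45.6% and 44.8% of all regions. The 9 differences among 144 regions are few beside that disagreement, but their shares lay above those of all regions. At equal list length 4 of 123 HOX regions (3.25%) were gained, against 1.47% of all regions, and 3 (2.44%) were lost, against 1.17%. Leaving out 1 library gave 9 to 28 gained and 5 to 13 lost regions.

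With c-JUN and c-FOS over-expressed, 1 HOX site was gained and 1 lost against the vector control, and the loss depended on the list length. In AP1 against vector 451Lu, 1 of 54 HOX regions was gained, 2:177001401-177001852 in HOXD, against 1.6% of all regions, and 1 was lost, 12:54399774-54400071 in HOXC, against 2.86%. The gained site had scores of 5.66 and 11.9 in AP1, and a peak was also listed there in both parental, both vector_NT and all 4 WM983B libraries. The lost site had 3.25 and 4.30 in vector, and was listed in both parental and both resistant 451Lu and all 4 WM983B libraries. At equal list length, 1 of 51 HOX regions was gained, against 2.17% of all regions, and 0 were lost, against 2.39%. HOX regions called in all 4 full lists numbered 31 (57.4%), against 55.1%. HOXA coverage was 4.55% and 4.62% in AP1 and 5.64% and 5.28% in vector, and HOXC coverage 2.79% and 3.004% against 4.30% and 3.79%. In both clusters the groups did not overlap, while the whole lists did, at 24.0 and 27.3 Mb in AP1 and 28.4 and 26.4 Mb in vector. HOXB and HOXD coverage overlapped, at 3.23% and 4.28% against 4.42% and 3.87% and at 3.51% and 3.62% against 3.73% and 3.03%.

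With the shRNA against p150, no HOX region was gained or lost by the rule. In shp150 against NT 451Lu, 0 of 49 HOX regions were gained, against 0.747% of all regions, 0 were lost, against 7.51%, and 25 (51%) were called in all 4 libraries, against 43.6%. Coverage was lower in both shp150 libraries than in both NT libraries in HOXB (1.81% and 2.23% against 3.69% and 2.81%), HOXC (1.15% and 1.74% against 3.90% and 2.66%) and HOXD (2.62% and 2.37% against 3.82% and 3.33%). HOXA overlapped, at 3.60% and 3.10% against 4.94% and 3.51%. The whole lists were also shorter with the shRNA, at 18.3 and 18.1 Mb against 26.9 and 24.0 Mb, and the part of that in the lower coverage of the clusters was not tested. Calling a region only where 50% of it was listed, or only from scores of at least 5, gave 3 lost HOX regions in place of 0.

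Cells with both changes differed from their control at 1 open HOX site, and at none with lists of equal length. In shp150_AP1 against vector_NT, 1 of 59 HOX regions was gained, against 5.19% of all regions, 0 were lost, against 3.26%, and 43 (72.9%) were called in all, against 56.5%. The gained site, 12:54402668-54403005 in HOXC, had scores of 9.03 and 4.49 in shp150_AP1 and was also listed in both parental and both resistant 451Lu libraries. At equal list length 0 of 58 HOX regions were gained and 0 lost, against 4.37% and 4.17% of all regions. HOXA coverage was 7.13% and 6.96% in shp150_AP1 and 6.39% and 6.50% in vector_NT. HOXC coverage was 5.44% and 5.63% against 5.12% and 5.004%, and HOXD coverage 5.41% and 5.64% against 5.36% and 5.28%. In these 3 clusters the shp150_AP1 values lay above the vector_NT values without overlap, though by little in HOXD. The order was the opposite one in HOXA and HOXC in AP1 and in HOXC and HOXD in shp150. In each of these comparisons 2 libraries against 2 cannot go below an exact two-sided permutation p of 0.333, and the contrast between them was not tested. HOXB overlapped, at 5.77% and 5.35% against 5.71% and 5.41%, and the whole lists did too, at 44.8 and 46.8 Mb against 46.8 and 43.3 Mb.

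H3K27ac was listed at more HOX sites in resistant than in parental 451Lu. The HOX windows held 38 peaks in the parental and 59 in the resistant list, with 6 and 12 in HOXD, 8 and 15 in HOXC, 9 and 12 in HOXA, and 15 and 20 in HOXB. Of 62 HOX regions, 26 (41.9%) were listed only in the resistant library, against 50.3% of all regions, 3 (4.84%) only in the parental, against 19.9%, and 33 (53.2%) in both, against 29.9%. The whole lists held 32304 and 51710 peaks. With both lists held to the 32304 best-scoring peaks, 14 of 50 HOX regions (28%) were resistant-only, against 33.4% of all regions, 9 (18%) were parental-only, against 32.9%, and 27 (54%) were in both, against 33.7%. The share of resistant-only regions was thus below that of all regions, and the excess of resistant-only sites was smaller at equal list length.

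**Figure D4:**
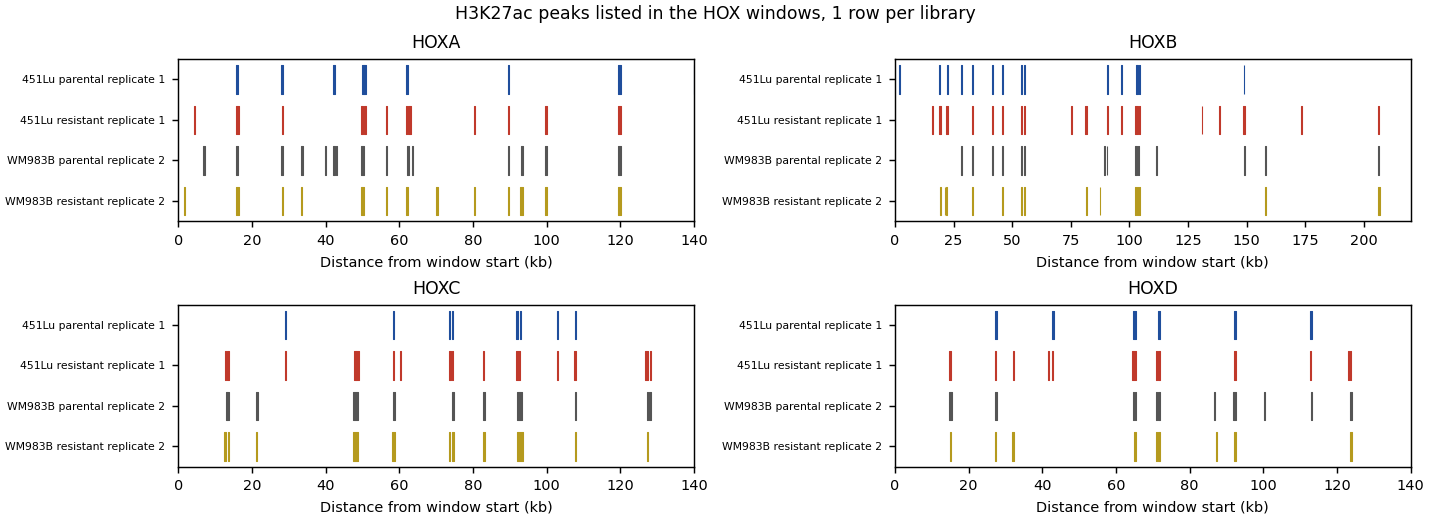
Position of every listed H3K27ac peak in the 4 HOX windows, as distance from the window start in kb, with 1 row for each of the 4 libraries. Resistant 451Lu lists more peaks than parental 451Lu in every cluster, 59 against 38 in all.

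The highest-scoring resistant-only peak of each cluster in 451Lu had a score of 13.4 in HOXD, 11.98 in HOXA, 10.5 in HOXC and 6.80 in HOXB. The first 3 of HOXD and all 4 of HOXA were 2:177000823-177001213 (score 13.4), 2:177052915-177053297 (8.73) and 2:176971529-176971834 (7.64), and 7:27219637-27220055 (11.98), 7:27200185-27200682 (6.96), 7:27124397-27124674 (5.02) and 7:27176360-27176637 (3.67). In HOXC the first 3 were 12:54367685-54368252 (10.5), 12:54446576-54447539 (9.74) and 12:54380115-54380456 (8.37). In HOXB they were 17:46681291-46681776 (6.80), 17:46619290-46619573 (6.70) and 17:46615848-46616380 (6.68), the last of which lies just beside the ATAC-seq gain at 17:46616606-46616912. The parental-only peaks were 7:27161931-27162525 (6.38), 17:46628265-46628642 (9.64) and 17:46601910-46602304 (4.05).

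Many of the HOX sites with H3K27ac only in resistant 451Lu were also open in parental cells. Of the 26 resistant-only HOX regions, 15 (57.7%) were called in both parental ATAC-seq libraries, against 17.2% of all resistant-only H3K27ac regions, and 16 (61.5%) in both resistant libraries, against 20.7%. Of the 38 HOX regions with H3K27ac in parental cells, 22 (57.9%) overlapped a site open in both parental libraries, against 45.4% of all. Within HOX this share was thus not particular to the resistant-only regions. Seen from the open sites, 18 of 50 HOX regions (36%) open in both parental libraries carried H3K27ac in parental cells, and 30 of 51 (58.8%) open in both resistant libraries did so in resistant cells. Over the whole genome these shares were 18.5% and 19.4%. In HOXC they were 3 of 12 and 9 of 12, in HOXD 3 of 10 and 5 of 7, in HOXA 5 of 9 and 7 of 11, and in HOXB 7 of 19 and 9 of 21. These shares rest on full H3K27ac lists of unequal length, 32304 peaks in parental and 51710 in resistant cells, with no replicate list. They were not recomputed at equal list length, and the part of list length in the higher resistant HOX share was not tested. Of the 26 regions, 17 (65.4%) were listed in an H3K27ac library of WM983B, against 39.9% of all such regions.

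In WM983B the resistant H3K27ac list was the shorter one. The HOX windows held 54 peaks in the parental and 47 in the resistant list, and of 62 HOX regions 11 (17.7%) were resistant-only, against 21.2%, 16 (25.8%) were parental-only, against 43.8%, and 35 (56.5%) were in both, against 35%. The whole lists held 50336 and 36022 peaks. With lists of equal length the order turned, to 15 of 55 HOX regions (27.3%) resistant-only, against 30.7% of all regions, and 9 (16.4%) parental-only, against 30.9%. The HOX share was below that of all regions in both directions, and 31 (56.4%) were in both lists, against 38.5%. The share of open HOX regions with H3K27ac was 30 of 70 in parental and 33 of 77 in resistant WM983B, 42.9% in both, against 14.5% and 15.4% of all open regions.

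Among the WM983B changes, the resistant-only peaks were 7:27189900-27190556 (8.44), 7:27200324-27200677 (8.06) and 7:27121457-27121731 (4.77) in HOXA and 12:54393409-54393819 (9.77) in HOXC. In HOXB they were 17:46621831-46622166 (6.25), 17:46619040-46619495 (5.71), 17:46621187-46621461 (4.82), 17:46687274-46687561 (4.52) and 17:46681447-46681842 (4.03), and in HOXD 2:176961864-176962260 (5.33) and 2:177017121-177017427 (3.64). The first parental-only peaks were 7:27183344-27183719 (12.3), 7:27162814-27163154 (6.64) and 7:27159835-27160142 (5.29) in HOXA, and 17:46690266-46690610 (9.37), 17:46748817-46749144 (8.07) and 17:46628376-46628661 (6.17) in HOXB. Those of the other clusters were 12:54447892-54448219 (5.72) in HOXC and 2:177030089-177030418 (7.44), 2:177016583-177016892 (3.87) and 2:177042893-177043178 (2.86) in HOXD. The lines shared 4 resistant-only HOX sites, 1 in HOXA, 2 in HOXB and 1 in HOXD. That is 15.4% of the 26 sites of 451Lu and 36.4% of the 11 of WM983B, near the genome-wide shares of 14.4% and 34.3%. They shared 2 parental-only sites, 7:27161931-27162525 in HOXA and 17:46628265-46628642 in HOXB by their 451Lu coordinates. That is 66.7% of the 3 sites of 451Lu, against 23.6% over the genome, and 12.5% of the 16 of WM983B, against 10.8%.

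Acetylation common to all 4 libraries was frequent in the clusters. Of 76 HOX regions of the 4 lists, 20 (26.3%) were listed in all, against 12.9% of all regions, with 7 in HOXA, 5 in HOXB, 4 in HOXC and 4 in HOXD. The strongest was 2:176994415-176995561 in HOXD, a cluster whose genes pattern limbs and genitalia, with scores of 82.3 and 152 in parental and resistant 451Lu and 76.7 and 128 in parental and resistant WM983B. Its rank was the 98.4 percentile or higher in each of the 4 lists. In HOXA, 7:27135741-27136550 had 16.04 and 45.1 in 451Lu and 23.001 and 60.7 in WM983B, and its rank was the 78.2 and 95.4 percentile of the 451Lu lists and the 88.2 and 97.9 percentile of the WM983B lists. In HOXB, 17:46632678-46633410 had 31.9, 33.2, 24.9 and 13.9 in the same order. The second sites by this rule were 7:27147785-27148527, 17:46702348-46704410 and 2:177021887-177022616. In HOXC, 12:54411725-54413480 and 12:54427519-54428037 had lowest scores of 7.06 and 6.96. Without a second listed library per group none of these differences has an error.

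H3K27ac peaks that set the lines apart were few in number, though their shares lay above those of all regions. Of the 76 regions, 4 (5.26%) were listed in both WM983B and neither 451Lu library, against 4.14% of all regions. The reverse case held for 5 (6.58%), against 3.38%. Those of WM983B were 7:27212906-27213695, 7:27153246-27153893, 17:46757839-46758257 and 12:54341214-54341533. Those of 451Lu were 7:27170398-27170877, 17:46696399-46696845, 12:54422797-54423149, 12:54348870-54349228 and 2:176972635-176973077. The first WM983B peak overlaps the strongest ATAC-seq site that only WM983B had, 7:27212767-27213504.

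H3K9me3 islands were unevenly spread over the clusters in 451Lu. Merging the 8 libraries gave 15 islands, 6 in HOXB, 5 in HOXA, 3 in HOXD and 1 in HOXC. The HOXB window is 220 kb long and each of the others 140 kb. The HOXB count includes 17:46714201-46719800, listed only in resistant replicate 1 with a fold of 0.892 and a false discovery rate above 0.01. It also includes 17:46812201-46822400, where that rate was below 0.01 only in vector_NT replicate 1 (fold 1.72). At 17:46594601-46602000 the rate was above 0.01 in resistant replicate 1 and vector_NT replicate 2. Of the 15 islands, 2 were called in all 8 libraries, 2:176945401-176951000 in HOXD and 17:46767001-46774000 in HOXB. The HOXD island had ChIP over input folds of 4.50 and 4.12 in parental, 3.09 and 2.19 in resistant, 3.39 and 3.002 in vector_NT, and 3.03 and 2.29 in shp150_AP1 cells. It was wider in the parental libraries, at 2:176945601-176950800 and 2:176945601-176950400, than in the resistant ones, at 2:176946601-176948800 and 2:176946001-176949000. Both parental folds lay above both resistant folds, and the vector_NT and shp150_AP1 folds overlapped in range. The fold is the authors' ratio of ChIP to input reads after scaling between the 2. The labels name no input sample for shp150_AP1 replicate 1, and the input behind the folds of that library is not given.

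HOX sites open in both libraries of a group seldom lay in an island of both, as was so over the whole genome. In parental, resistant and shp150_AP1 451Lu, 0 of 50, 0 of 51 and 0 of 47 HOX regions open in both ATAC-seq libraries of the group lay in an island of both H3K9me3 libraries, and in vector_NT 1 of 45 did. Over the whole genome 3.97% to 4.99% of open regions lay in such islands, so counts this low say nothing particular to the HOX windows. A listed island of a single library could hold an open site, as in resistant replicate 1. There 17:46597001-46602000 (fold 0.939) covered the peak at the low-coordinate edge of HOXB. With 181 ChIP and 253 input reads and a false discovery rate above 0.01, that entry was not enriched over input.

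All H3K9me3 islands of HOXA were missing from the lists of resistant 451Lu. Islands covered 12.4 and 9.2 kb of HOXA in the parental libraries, 0 and 0 kb in the resistant, 20.6 and 17 kb in vector_NT, and 9.2 and 2 kb in shp150_AP1. The 4 parental islands, by coordinates merged over both libraries, were 7:27204801-27206800 (folds 2.12 and 2.51), 7:27211201-27215200 (2.21 and 2.03), 7:27195201-27198600 (1.79 and 1.98) and 7:27125001-27129400 (1.58 and 1.66). Their reads were modest, as in 7:27204801-27206800 with 102 ChIP and 70 input reads in replicate 1 and 131 and 70 in replicate 2. In resistant against parental 451Lu, 4 of 12 HOX islands (33.3%) were lost, against 17.7% of all islands, 0 were gained, against 3.06%, and 2 were called in all 4 libraries, against 26.5%. An island that is not listed can still carry reads below the threshold, and those reads are not analysed here. With lists of equal length, the 40010 islands of lowest p-value, 2 islands were left in HOXA and 1 of them was lost. Over the clusters that made 1 of 9 HOX islands (11.1%), against 11.3% of all islands, so the excess of lost HOX islands was not seen at equal length.

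**Figure D5:**
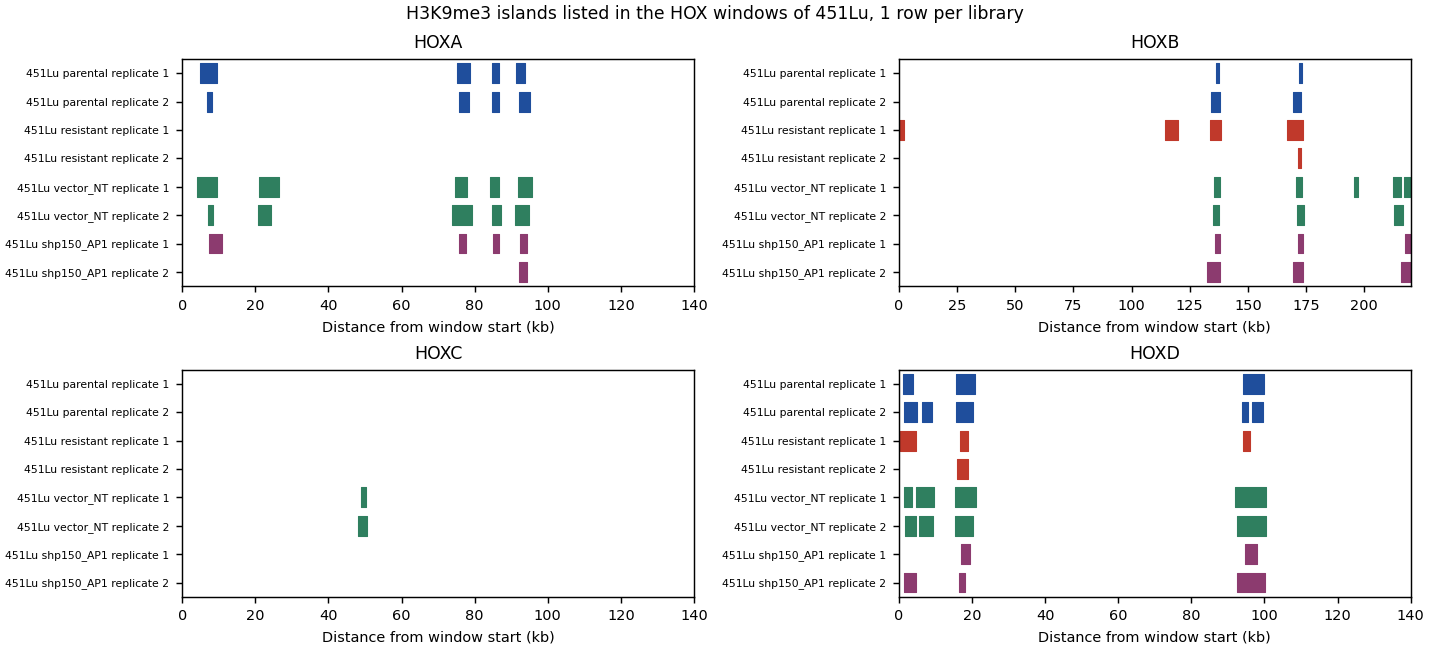
Position of every listed H3K9me3 island in the 4 HOX windows of 451Lu, as distance from the window start in kb, with 1 row per library. The 2 resistant rows are empty in HOXA, and the only HOXC islands are in the 2 vector_NT rows.

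In HOXD the listed islands were also smaller in resistant cells, while HOXB showed no such order. HOXD was covered by 13.8 and 15.8 kb in parental, 8.6 and 3 kb in resistant, 21 and 19.8 kb in vector_NT, and 5.8 and 12.8 kb in shp150_AP1 cells, so both changed groups lay below both control groups without overlap. HOXB was covered by 2.8 and 7.2 kb, 19.4 and 1.6 kb, 13 and 9.4 kb, and 6.6 and 13.4 kb in the same order. The 19.4 kb of resistant replicate 1 came from 4 broad islands with folds of 0.892 to 1.38, of which 3 had a false discovery rate above 0.01. In shp150_AP1 against vector_NT, 3 of 14 HOX islands (21.4%) were lost, against 13.8% of all, and 0 were gained, against 1.87%. They were 7:27140801-27146600 in HOXA (folds 1.56 and 1.49 in vector_NT), 12:54368201-54370600 in HOXC and 2:176934801-176939600 in HOXD (2.21 and 2.25). At equal list length 2 of 13 (15.4%) were lost, against 9.46% of all, and none of them was in HOXA. Another 6 of the 14 (42.9%) were called in all 4 libraries, against 34%.

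Taking resistant and shp150_AP1 libraries as changed and parental and vector_NT libraries as controls, no cluster passed the test of its coverage after adjustment. The test joined 2 separate comparisons and exchanged labels over all their libraries. Its p-values and SDs therefore describe libraries and not independent cell populations. HOXD was covered by 5.39% ± 2.99 (SD, n = 4) in changed and 12.6% ± 2.41 (n = 4) in control libraries, with an exact two-sided permutation p of 0.0286 and an adjusted p of 0.114. HOXA was covered by 2% ± 3.12 and 10.6% ± 3.59, with an exact permutation p of 0.0571 and an adjusted p of 0.114, and shp150_AP1 replicate 1 reached the level of the lower parental library. HOXB gave 4.66% ± 3.54 and 3.68% ± 1.94, with an adjusted exact permutation p of 0.714 and a difference that turned from 0.977 to -0.409 percentage points without resistant replicate 1, and HOXC 0% and 0.714% ± 0.857, with 0.571. The whole lists covered 285 Mb ± 23.5 in changed and 360 Mb ± 33.1 in control libraries, with an exact permutation p of 0.0286. ChIP reads in islands were 11.5 M to 14.9 M in changed and 15.7 M to 31.1 M in control libraries, and their part in the coverage of the clusters was not tested.

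In HOXA, 2 sites that lay in H3K9me3 islands of 451Lu were open only in WM983B. The island region 7:27211001-27215600 was listed in 6 of the 8 451Lu libraries, all but the resistant ones, and contains the WM983B site 7:27212767-27213504, which all 4 WM983B ATAC-seq libraries and both WM983B H3K27ac libraries listed. No 451Lu ATAC-seq or H3K27ac library listed a peak in this island. The island region 7:27193801-27199400 contains a second such site, 7:27195605-27195985, with weak scores of 1.88 and 3.94 in parental and 2.15 and 6.45 in resistant WM983B. Over all 13 HOX sites open only in WM983B, 2 (15.4%) lay in an island of parental or vector_NT 451Lu, near the 17.9% of all sites of that kind. H3K9me3 was not measured in WM983B.

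The authors also deposited a table of 1848 intervals with a fold change each, and 0 of them overlap a HOX window. The nearest interval lay 240 kb from HOXA, 220 kb from HOXB, 240 kb from HOXC and 310 kb from HOXD. By the authors' deposited table, the log2 fold changes of these nearest intervals were -1.57, 2.86, 1.98 and 0.79, and the table does not say which group a positive value favours.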

How the data were processed

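The windows, the 38 genes, the motifs and the tests were chosen with earlier results of these data known. Libraries were grouped by the labels, and 32 of 47 samples had a list used here; the other 15 were not analysed here. Tools in the submitters' processing notes, with no role given, are MACS2, SICER, Bowtie2, deepTools, Picard and STAR 2.5.3, and the build is hg19; whether Tn5 cuts were shifted or duplicates removed is not given in the sources used here. Per the deposited files, peak lists carry a score per peak of unstated kind, from the authors. The deposited H3K9me3 islands hold read counts for ChIP and input, the fold (ratio) between them with its p-value, and a false discovery rate, made by the authors. The authors' deposited interval table holds a mean signal, a log2 fold change, a test score and p-values.

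Entries on 23 chromosomes were merged into union regions over the libraries compared where they shared at least 1 bp. Regions were called by 1 bp of cover, and coverage was tested by exact two-sided permutation, adjusted over the 4 clusters (Python 3.11.15, numpy 2.4.6, pandas 2.3.3). Counting was tested on simulated lists. Alternatives were lists of equal length, 50% cover, scores of at least 5 or a false discovery rate of at most 0.01, union over all libraries, each library left out, single comparisons, the replicate block and, added after seeing the data, coverage relative to the whole list. Named regions were every gained or lost region where a cluster had 5 or fewer, otherwise the 3 with the highest lowest score (islands: fold), and the 2 strongest called in every library.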

Additional observations from a re-analysis of the deposited data

Results flagged for a closer look

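In HOXA, the ATAC-seq coverage of resistant 451Lu replicate 2 was 7.43%, far from the other 3 parental and resistant 451Lu libraries, which lay at 7.02% to 7.07%. Of 16 groups looked at in this way it was the only one with so distant a library, and chance alone gives such a distance in about 1 of 20 groups.

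Resistant minus parental coverage had opposite signs in the lines, with every library of one line moving against every library of the other. For ATAC-seq in HOXD the difference was -0.61 percentage points in 451Lu and 1.19 in WM983B. For H3K27ac it was 1.18 and -0.819 in HOXA, 1.503 and -0.127 in HOXB, 3.10 and -0.0429 in HOXC and 1.68 and -0.739 in HOXD. The whole H3K27ac lists moved the same way, from 13.7 to 21.8 Mb in 451Lu and from 20.8 to 15.5 Mb in WM983B. None of these differences between lines was tested, and H3K27ac had 1 listed library per group.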

How the results depend on the processing

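Of the results recomputed under other settings, 158 values kept their direction and their side of the threshold or stayed within 1.5 times, 54 moved, 17 lost the threshold, 2 passed it and 5 reversed. For ATAC-seq coverage, 451Lu minus WM983B in percentage points, the replicate block left the differences of 1.48 (HOXA), 3.51 (HOXB) and 2.23 (HOXC) as they were and gave each an adjusted exact permutation p of 0.167, where 0.125 is the smallest p it allows. The shared numbers are not known to pair samples across lines. Relative to the whole list, a scale chosen after seeing the data, the differences were -0.367 (HOXA), 1.12 (HOXB), 0.0547 (HOXC) and -0.498 (HOXD) bases per 10000. HOXD gave 1.75 with lists of equal length and 1.53 with parental libraries only. Leaving out 1 library gave 1.24 to 1.77 for HOXA, 3.29 to 3.72 for HOXB, 1.998 to 2.44 for HOXC and 0.376 to 1.05 for HOXD. For H3K9me3 coverage, changed minus control, HOXB turned to -0.773 with a false discovery rate of at most 0.01 and to -0.545 with shp150_AP1 against vector_NT only, and leaving out 1 library gave -0.409 to 2.29. The same gave -10.1 to -7.19 for HOXA, -0.952 to -0.381 for HOXC and -8.43 to -6.10 for HOXD.

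With lists of equal length, gained and lost ATAC-seq regions were 3 and 2 in resistant 451Lu, 0 were lost in AP1 and 0 gained in shp150_AP1, 1 H3K9me3 island was lost in resistant cells, and H3K27ac gave 14 gained and 9 lost regions in 451Lu and 9 lost in WM983B. With 50% of a region required, 2 were lost in resistant 451Lu, 11 gained in WM983B, 3 lost in AP1, 3 lost in shp150 and 6 islands lost in shp150_AP1. With scores of at least 5, 3 were gained and 0 lost in resistant 451Lu, 2 lost in AP1 and 3 lost in shp150. Leaving out 1 library, which eases the rule by construction, gave ATAC-seq gains and losses of 6 to 8 and 1 to 5 in resistant 451Lu, 9 to 28 and 5 to 13 in WM983B, 1 to 4 and 2 to 6 in AP1, 0 to 2 and 1 to 7 in shp150, and 2 to 4 and 0 to 2 in shp150_AP1. For H3K9me3 it gave 0 to 2 gains and 4 to 7 losses in resistant cells and 0 gains and 3 to 6 losses in shp150_AP1. Other causes were not tested. Sites below a list's threshold are missing here, so an unlisted site is not shown to be closed or unmarked.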
